A study of Mus with 14 samples.

Results

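The cells described here were bone marrow progenitors with UMIs of both Cd34 and Tespa1 and with few or no UMIs of genes that mark stem cells and committed lineages. Of 70038 cells that passed the quality limits in 14 libraries, 2106 met the rule. A member had at least 1 UMI (unique molecular identifier, a count of 1 captured RNA molecule) of Cd34 and of Tespa1, at most 3 of Elane, at most 1 of Pf4, and none of Hlf, F13a1, Klf1, Dntt, Ms4a2 or Siglech. Members were chosen by the measured UMIs of these 10 genes, whose values are given only as a description. They are called Cd34 Tespa1 progenitors below.

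The study used 3' single-cell RNA sequencing (10x Chromium, chemistry version 3.1, 12000 cells loaded per library) to compare marrow that carried mutant Dnmt3a with and without each receptor of tumour necrosis factor alpha. There were 3 mice labelled MxCre, 4 labelled Dnmt3a, 3 labelled Dnmt3a;Tnfr1KO (written Tnfr1KO-labelled) and 4 labelled Dnmt3a;Tnfr2KO (written Tnfr2KO), with 1 library per mouse. MxCre is the control, which carried only the inducible recombinase, and both receptor groups also carried the Dnmt3a genotype. Per the design text of the series, CD45.2+ donor cells competed with CD45.1+ marrow in aged, lethally irradiated CD45.1+ recipients, which received a single injection of poly(I:C), the inducer of this recombinase, and were bled monthly for 16 weeks. Their marrow was passed to aged, irradiated secondary recipients, and these were harvested after 20 weeks and sorted for Lin-Kit+CD45.2+ cells. The labels name no Dnmt3a allele and do not trace the sorted mice back to primary recipients. Mice of a group may therefore share a donor, and p-values measure only the spread between these mice.

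Multipotent progenitors lie just downstream of haematopoietic stem cells and still give rise to several blood lineages. Cd34 is a surface sialomucin that mouse stem cells of adult marrow largely lack and their early progeny gain. Tespa1 encodes an adaptor of T cell receptor signalling known from thymocytes, Cd27 a receptor of the tumour necrosis factor receptor family, Adgrg1 an adhesion G protein-coupled receptor, and Ikzf2 the zinc finger factor Helios. Dnmt3a is a de novo DNA methyltransferase, and its loss in stem cells is a common cause of clonal haematopoiesis.

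Libraries held 3042 to 9724 barcodes and 62416022 to 162869740 UMIs, and their kept cells had median depths of 11275 to 39561 UMIs. Dnmt3a replicate 1 stood apart, since 26.9% of its barcodes were kept and it gave 16 members. It fell short of the 20 members required per library, so expression tests used 13 libraries and 3 Dnmt3a mice. Dnmt3a replicate 4 gave only 21 members, and their transcripts of mature neutrophils summed to 7532 CPM, against 10.2 to 1295 CPM in the other 12 libraries tested. Pairs of libraries shared at most 17 kept barcodes, and no barcode was a member in more than 1 library. The deletions could not be checked from these data, because counts at the 3' end say nothing of a deletion elsewhere in the gene. In members, Tnfrsf1a (Tnfr1) was at 33.7, 42.7 and 36.9 CPM in Tnfr1KO-labelled mice and at 39.7, 35.2 and 54.3 CPM in Dnmt3a mice, so the label had no counterpart in the transcript count. Tnfrsf1b (Tnfr2) was at 5.35, 7.15, 5.42 and 4.34 CPM in Tnfr2KO mice and at 14.1, 8.52 and 16.9 CPM in Dnmt3a mice, which did not overlap but missed the threshold (log2 fold change -1.05, SE 0.30, adjusted p = 0.19, edgeR). The ligand gene Tnf lay at 0 to 6.82 CPM in members of the libraries tested. Dnmt3a itself lay at 22.4 to 39.6 CPM in Dnmt3a mice and at 18.8 to 32.3 CPM in MxCre mice.

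Members carried a median of 5 Cd34 UMIs and 2 Tespa1 UMIs. At the edge of the rule, 225 members had a single Cd34 UMI and 576 cells failed only for lack of one, while 735 members had a single Tespa1 UMI and 1093 cells failed only for lack of one. Of the members, 900 had no Elane UMI and 212 had the allowed maximum of 3, and 151 cells failed only by 1 UMI more. Pf4 was absent from 1854 members and at 1 UMI in 252, and 51 cells failed only by having 2. The Hlf limit removed the most cells at 1 UMI, with 1653 failing by that alone, against 164 for F13a1, 107 for Dntt, 84 for Ms4a2, 78 for Klf1 and 0 for Siglech. Cells thus stood on both sides of each edge except that of Siglech. At counts this low sampling can fill both sides, so these counts cannot tell a continuous population from separate ones.

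The marker genes were higher in members than in the other kept cells of the same libraries, which is given without a test because the rule chose the cells. Adgrg1 averaged 330.6 CPM in members and 136 CPM in other kept cells, Ikzf2 103 against 44.2 CPM and Cd27 117 against 56.8 CPM, each higher in 13 of 13 libraries. After every cell was thinned to 5000 UMIs, Adgrg1 was found in 78.6% of 2027 members, Cd27 in 46.5% and Ikzf2 in 39.4%. In erythroid cells (at least 3 Klf1 UMIs and no Cd34) at the same depth, the shares were 27.4%, 4.02% and 14.4%, which sets the level that free RNA and other expression give.

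These markers of early multipotent progenitors were thus present in members, and granule genes were also widespread. Mpo, which encodes myeloperoxidase, was found in 81.4% of thinned members and Prtn3, which encodes proteinase 3, in 94.0%, against 18.2% and 22.7% of the erythroid cells. In kept cells with an Hlf UMI, at the same depth, the shares were 70.7% and 87.6%. Cpa3, a mast cell and progenitor protease, was found in 33.9% of members, Gata2, a stem and mast cell factor, in 30.7%, and Flt3, the receptor of lymphoid-primed progenitors, in 14.5%. The erythroid cells had 5.74%, 30.8% and 0.13%, so Gata2 was no more frequent in members than in them. Only 36 of 2027 members had UMIs of both Flt3 and Cpa3, or 1.78%, where independent detection would give 4.92%. Cpa3 and Gata2 met in 308 members, or 15.2%, where independent detection would give 10.4%. Members thus differed among themselves, with Flt3 on one side and Cpa3 with Gata2 on the other.

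Members were set beside the 5414 cells that met every other criterion and carried Hlf, a stem cell transcription factor. Of these, 1653 had a single Hlf UMI. This neighbouring set was chosen after the values had been seen, and its comparison with members is a description without a test. Of 7821 genes compared, 1 was more than 1 log2 unit higher in members on average over 13 libraries and 4 were more than 1 unit lower. The gene above that line was Irf8, a monocyte and dendritic cell factor, at 63.4 CPM in members and 18.2 CPM in their Hlf-carrying neighbours. The 4 below it were haemoglobin genes, led by Hbb-bs at 86.7 and 384 CPM, whose ratio turned over between libraries (lower in 10 of 13). Near-identical haemoglobin copies can share reads, so their counts are uncertain.

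Smaller differences held in each of the 13 libraries for the genes named next. The granule genes Mpo (1250 against 686 CPM), Ctsg (1169 against 647 CPM) and Prtn3 (1191 against 880 CPM) were higher in members, as were Cpa3 (227 against 105 CPM), the basophil protease gene Mcpt8 (75.2 against 30.5 CPM) and the myeloid factor Cebpa (52.5 against 34.7 CPM). The stem cell genes Mecom (21.1 against 44.3 CPM), Ly6a (14.9 against 31.1 CPM) and Meis1 (83.7 against 129 CPM) were lower in members. Mitotic genes were lower too, with Cenpf at 70.3 against 145 CPM, Ube2c at 122 against 231 CPM and Nusap1 at 74.0 against 134 CPM. The 3 markers outside the rule were slightly lower in members than in the Hlf-carrying cells, by 0.23 log2 units for Adgrg1, 0.26 for Cd27 and 0.17 for Ikzf2, so they did not single out the cells without Hlf.

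Summed over gene lists, with the rule's own genes left out, the granulocyte list was 0.46 log2 units higher in members (SD 0.11 over 13 libraries) and higher in 13 of 13. Its genes did not all rise. Mpo, Ctsg, Prtn3, Cebpa, Ms4a3 and Clec12a were higher in 13 of 13 libraries, and Nkg7 and Hp in 11. Csf3r was lower in 12 of 13, Srgn in 10 and Mgst1 in 8, while Gfi1 was higher in 7 and lower in 6. The basophil and mast cell list was 0.50 higher (SD 0.42) and higher in 12 of 13. The stem cell list was 0.44 lower on average (range -1.10 to 0.10), the HoxA and HoxB list was lower in 13 of 13 (mean -0.45), and the G2 and M phase list was lower in 13 of 13 (mean -0.43). The erythroid list was lower in 12 of 13 (mean -0.78) and the Gimap family of lymphocyte GTPases in 13 of 13 (mean -0.61). The RNA quality and ambient list was lower in 12 of 13 (mean -0.28), and its part in the other differences was not tested. The early progenitor list was also lower in 13 of 13 (mean -0.15), at 2802 CPM in members and 3107 CPM in the Hlf-carrying cells. The S phase list was 0.10 higher on average. In thinned cells the median member carried 19 UMIs of S phase genes and 13 of G2 and M phase genes, while all Hlf-positive cells, a broader set of 19555 thinned cells, carried 16 and 20. Members thus held relatively more S phase and fewer mitotic transcripts than cells with Hlf, but these sets were split by Hlf UMIs themselves. Before thinning the median depth was 15179 UMIs in members, 17021 in the Hlf-carrying neighbours and 21390 in all Hlf-positive cells. A deeper cell is more likely to show an Hlf UMI, and the part of depth in this difference was not tested.

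**Figure D1:**
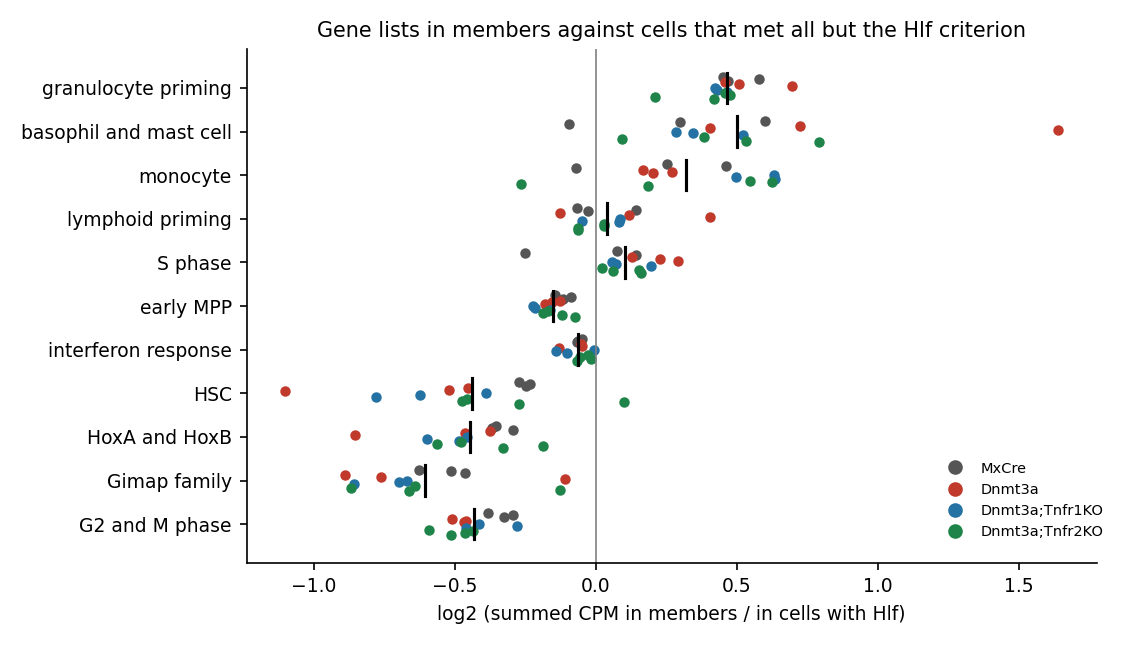
Log2 ratio of the summed CPM of each gene list in members to that in cells that met every other criterion but carried Hlf, by library (points, 13 libraries) with the mean. Granulocyte priming lay above 0 in each library, at 0.21 to 0.70, and G2 and M phase below 0 in each, at -0.59 to -0.28.

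The first question of the design was whether the genotypes changed how many of these progenitors there were. Members made up 3.77%, 1.32% and 3.64% of kept cells in MxCre mice, 0.818%, 2.07%, 3.85% and 0.370% in Dnmt3a mice, 2.17%, 2.33% and 2.05% in Tnfr1KO-labelled mice and 3.28%, 2.91%, 3.73% and 5.78% in Tnfr2KO mice. The Dnmt3a mice spread widest and included both the lowest value and 1 of the highest, and the Tnfr1KO-labelled mice lay closest together. Group means were 2.91% ± 1.38 (SD, n = 3), 1.78% ± 1.56 (n = 4), 2.18% ± 0.141 (n = 3) and 3.93% ± 1.28 (n = 4). Exact 95% binomial intervals, which cover counting error only, ran from 0.229% to 0.565% in the lowest library and from 5.24% to 6.37% in the highest.

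No comparison of shares passed the threshold in two-sided exact permutation tests. The smallest p these tests could give was 0.0286 for 4 against 4 mice and 0.057 for 4 against 3. After adjustment none could have fallen under 0.05, so the tests cannot show that the shares were alike. Dnmt3a was 1.14 percentage points below MxCre (exact p = 0.40, adjusted over 4 comparisons 0.53). Tnfr1KO-labelled was 0.41 points above Dnmt3a (exact p = 0.69, adjusted 0.69). Tnfr2KO was 2.15 points above Dnmt3a (exact p = 0.11, adjusted 0.23) and 1.74 points above Tnfr1KO-labelled (exact p = 0.057, adjusted 0.23), and all 4 Tnfr2KO mice lay above all 3 Tnfr1KO-labelled mice. A share here is not a number of cells, since cells were sorted and loaded to a fixed number.

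The shares were also taken after thinning each cell to 5000 UMIs, since a deeper cell is more likely to show a UMI of an excluded gene. Cells under 5000 UMIs were left out, namely 660 of 13666 in MxCre, 2290 of 16133 in Dnmt3a, 2242 of 13351 in Tnfr1KO-labelled and 1684 of 26888 in Tnfr2KO mice. The means became 4.31%, 5.38%, 3.94% and 5.59% in the order above, and the differences of Dnmt3a from MxCre (1.07 points) and of Tnfr1KO-labelled from Dnmt3a (-1.45 points) changed sign. The difference of Tnfr2KO from Dnmt3a shrank to 0.21 points. Tnfr2KO stayed 1.66 points above Tnfr1KO-labelled (exact p = 0.23, permutation), but the groups now overlapped. Tnfr1KO-labelled replicate 2, at 5.04%, lay above Tnfr2KO replicates 1 and 3, at 4.49% and 4.10%. Among cells that met every other criterion, the part without Hlf was 15.6% ± 6.38 (n = 4) in Dnmt3a mice and 35.3% ± 13.8 (n = 4) in Tnfr2KO mice before thinning, but 58.2% ± 4.45 and 63.5% ± 7.30 after it. In the same cells of at least 5000 UMIs before thinning, a comparison added after seeing the data, the means were 2.98%, 1.86%, 2.53% and 3.97%, and Dnmt3a was 1.12 points below MxCre (exact p = 0.40). The lower mean of the Dnmt3a group was thus present without the shallow cells and was not seen once these cells were thinned to equal depth. Thinning also changed which cells met the rule. Of the 13843 Dnmt3a cells, 308 met it before thinning and 797 after it, so most of the latter did not meet it at full depth.

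**Figure D2:**
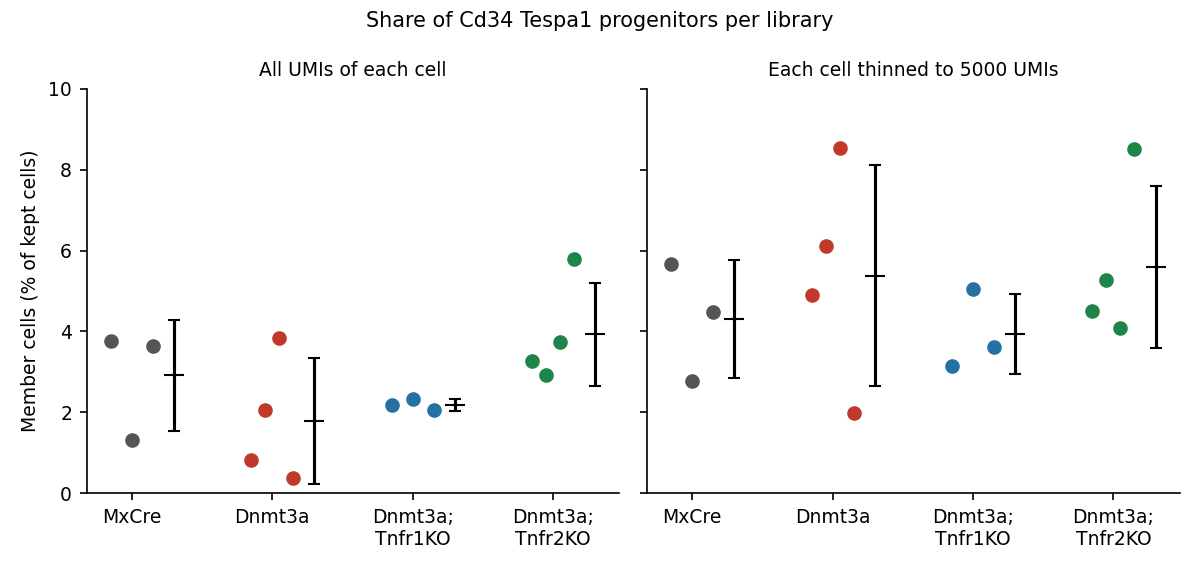
Share of kept cells that were members (percent), by group, 1 point per library with the group mean and SD as bars, for all UMIs and for cells of at least 5000 UMIs thinned to 5000. Without thinning the Dnmt3a mean of 1.78% was the lowest of the 4, and after thinning it was 5.38%, between 2 other groups.

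Expression was then compared within members, with UMIs summed over the members of each mouse. CPM of single genes are these sums relative to library size after TMM scaling, and a gene was called at an adjusted p below 0.05 in edgeR's quasi-likelihood test over 10055 genes. Dnmt3a against MxCre asks what the mutation changed in these progenitors. It gave 25 called genes, or 0.249% of those tested, with 6 higher (0.0597%) and 19 lower (0.189%). The 3 markers outside the rule were not called, with log2 fold changes of -0.18 for Cd27 (SE 0.14), -0.09 for Adgrg1 (SE 0.13) and 0.11 for Ikzf2 (SE 0.13).

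The 6 genes that rose included Clspn, Smc3, Ncf1 and Gm43305. Clspn, which encodes the replication checkpoint protein claspin, was at 96.0, 91.9 and 107 CPM in Dnmt3a mice and at 52.4, 46.1 and 70.0 CPM in MxCre mice (log2 fold change 0.74, SE 0.15, adjusted p = 0.038). Smc3, which encodes a cohesin subunit, was at 257, 249 and 239.6 CPM against 168, 159 and 178 CPM (0.56, SE 0.11, adjusted p = 0.038). The groups did not overlap for either gene, but here and below non-overlap was a condition for genes named by fold change. Ncf1, a subunit of the phagocyte NADPH oxidase, was at 37.2, 49.5 and 41.2 CPM against 23.5, 17.1 and 13.997 CPM (1.21, SE 0.24, adjusted p = 0.038). The unnamed gene model Gm43305 had the largest rise, from 2.44, 5.12 and 13.2 CPM in MxCre mice to 48.0, 38.9 and 56.2 CPM in Dnmt3a mice (2.76, SE 0.40, adjusted p = 0.0064). It was the only named gene of this comparison still called whichever mouse was left out, and its log2 fold change then ran from 2.004 to 3.99.

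The 19 genes that fell included Car2, Nusap1, Gimap1, Tnfrsf18, Ifi27l2a and Mtus2. Car2, which encodes carbonic anhydrase 2, was at 146.5, 128 and 78.6 CPM in Dnmt3a mice and at 253, 189 and 283 CPM in MxCre mice (log2 fold change -1.01, SE 0.20, adjusted p = 0.035). Nusap1, which encodes a spindle protein, was at 34.8, 62.6 and 69.3 CPM against 105, 81.9 and 112 CPM (-0.90, SE 0.18, adjusted p = 0.038). Both sets of values were apart, with Dnmt3a replicate 4 lowest for Car2 and replicate 2 lowest for Nusap1. Gimap1, a GTPase gene of lymphocytes, was at 51.3, 47.0 and 48.7 CPM against 78.1, 85.3 and 100.7 CPM (-0.86, SE 0.14, adjusted p = 0.024). Tnfrsf18, the tumour necrosis factor family receptor GITR, was at 1.66, 5.30 and 1.87 CPM against 14.6, 17.1 and 26.4 CPM (-2.26, SE 0.39, adjusted p = 0.024). Ifi27l2a, an interferon-induced gene, was at 4.14, 5.99 and 18.7 CPM against 28.4, 29.0 and 19.1 CPM (-1.81, SE 0.36, adjusted p = 0.038), and in this gene Dnmt3a replicate 4 came within 1 CPM of an MxCre mouse. Mtus2, a microtubule-associated protein gene, had 165 UMIs over the MxCre mice and none over the Dnmt3a mice, which a floor of 3 UMIs over the group makes at least 40.6-fold lower.

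Gene lists moved little by calls, and their direction is given beside the all-gene median of 0.00. In all comparisons of groups, list counts and medians keep any rule gene that was tested, whose values are a description only. The S phase list had 34 of 34 tested genes with a positive log2 fold change (median 0.26), with Clspn alone called by edgeR and 2 genes called by DESeq2. The G2 and M phase list had 28 of 38 negative (median -0.18), with Nusap1 alone called by edgeR and 5 genes called by DESeq2. Over all 10055 genes tested, edgeR called 25 and DESeq2 102. Cks2 and Cdc20, mitotic regulators, missed the threshold at -0.65 and -0.67 (adjusted p = 0.054 for both), and Mki67, a marker of cycling cells, had the opposite sign at 0.49 (adjusted p = 0.19). In the stem cell list 13 of 13 tested genes were negative (median -0.97), but edgeR called 0 of them, DESeq2 called 0 and 8 had an unadjusted p under 0.05. Among these, Ifitm1 was at 227, 142 and 114 CPM in Dnmt3a mice and at 447, 535.5 and 561 CPM in MxCre mice (log2 fold change -1.66, SE 0.51, adjusted p = 0.16). Mecom was at 29.8, 9.21 and 3.74 CPM against 25.3, 29.0 and 41.2 CPM (-1.18, SE 0.37, adjusted p = 0.18), and here the groups overlapped.

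Of the interferon response genes, 33 of 43 tested were negative (median -0.40), with Ifi27l2a alone called. The early progenitor list, which here holds the rule genes Cd34 and Tespa1, split 10 to 8 (median 0.04). EdgeR called 0 of its 18 genes, with 2 at an unadjusted p under 0.05 and 0 called by DESeq2. The tumour necrosis factor lists held 1 call, that of Tnfrsf18 among 12 receptor and ligand genes, against 0.249% of all genes, with 0 of 28 proximal signalling genes (0 at an unadjusted p under 0.05 and 0 by DESeq2) and 0 of 27 NF-kB genes (3 at an unadjusted p under 0.05 and 0 by DESeq2). The list of Tespa1 and its partners in T cell receptor signalling had 15 tested genes, with the rule gene Tespa1 itself among them. Its median was 0.08, with 0 calls in edgeR (2 at an unadjusted p under 0.05 and 0 by DESeq2). Mature neutrophil transcripts had a median of 3.75 with all 13 libraries and -1.46 without the libraries under 30 members, so Dnmt3a replicate 4 set the direction, and their part in the other differences was not tested. Without that library the stem cell list had 13 negative genes of 15 tested (median -0.81), the S phase list had 31 positive of 34 and the interferon list 33 negative of 43.

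Markers of other lineages differed beside these lists. The monocyte list had 11 of 13 genes positive (median 0.83, and 0.59 without Dnmt3a replicate 4), with 0 called by edgeR or DESeq2 and 4 at an unadjusted p under 0.05. The megakaryocyte list had 8 of 10 negative (median -0.45), with 0 called by either tool and 6 at an unadjusted p under 0.05. Summed monocyte levels were 324 to 414 CPM in MxCre mice and 365 to 566 CPM in Dnmt3a mice, and megakaryocyte levels were 429 to 519 and 379.5 to 424 CPM. The erythroid list had 7 of 9 negative (median -0.16, with Car2 called), and its median was -0.86 without Dnmt3a replicate 4. The list of RNA quality and ambient transcripts had 5 of 9 negative (median -0.08), and 7 of 9 without that library (median -1.02), with 0 called by edgeR or DESeq2 and 1 at an unadjusted p under 0.05 over all 13 libraries. The part of these 4 lists in the stem cell and interferon differences was not tested.

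**Figure D3:**
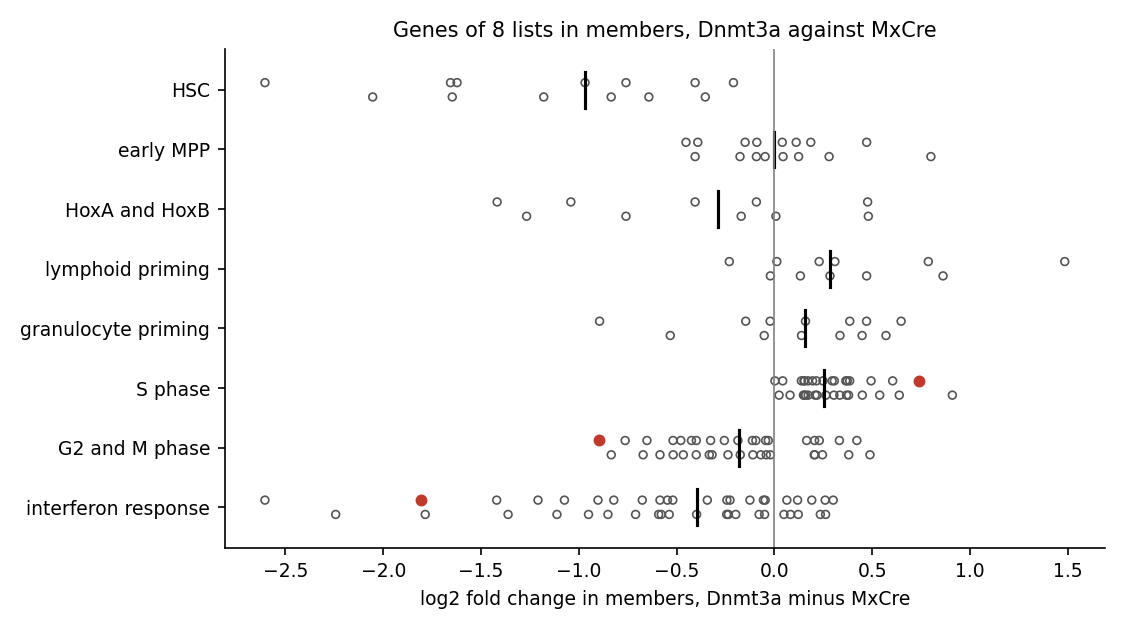
Log2 fold changes of Dnmt3a against MxCre in members for the tested genes of each list (points, rule genes left out), with the list median as a bar and called genes marked. The stem cell list lay wholly below 0 with no called gene, and the S phase list lay wholly above 0 with Clspn called.

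The number of calls rested on single mice. Without MxCre replicates 1, 2 and 3 there were 5, 2 and 5 calls, and without Dnmt3a replicates 2, 3 and 4 there were 110, 2 and 3. DESeq2 called 102 genes, of which 19 were among the 25. All 19 named genes that were called kept their direction in each fit with a mouse left out, but between 1 and 17 of them were still called. Nusap1 was called in 0 of these 6 fits, Ifi27l2a in 1 and Clspn in 2. With equal numbers of members Nusap1 had -0.18, with every excluded gene at 0 Clspn had 0.22 and Smc3 0.34, and with the rule applied to thinned cells Ifi27l2a had -0.89. With every excluded gene at 0, MxCre replicate 2 and Dnmt3a replicate 4 had 14 and 7 members, too few to enter the fit.

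A test of the difference between cell sets asked whether the genotype difference was the same in members and in Hlf-positive cells of the same libraries. The Hlf-positive set took every kept cell with an Hlf UMI and had none of the rule's other limits. Elane averaged 3182 CPM in that set and 54.3 CPM in members, and F13a1 averaged 44.6 and 0 CPM. The part of those limits in the differences below was not tested. The test found 15 of 12891 genes, or 0.116%, with 13 more negative in members. Ube2c, a ubiquitin-conjugating enzyme gene of mitosis, had log2 fold changes of -0.83 in members and 0.22 in Hlf-positive cells (difference -1.001, SE 0.14, adjusted p = 0.00088). Ms4a6c, a membrane gene of monocytes, had -0.38 and 0.74 (difference -1.10, SE 0.16, adjusted p = 0.00088). These were the genes of this set that stayed called whichever mouse was left out, with highest adjusted p of 0.014 and 0.028. Cdc20, Cks2, Hmmr and Cenpa, all mitotic, were also more negative in members, with differences of -0.72, -0.52, -0.73 and -0.62. Against all other kept cells, which include the Hlf-positive cells, 13 of 14601 genes differed (0.089%), with Ube2c, Cdc20, Hmmr and Ms4a6c among them. None of these named genes stayed called there whichever mouse was left out. Their highest adjusted p were 0.063, 0.13, 0.28 and 0.089 (edgeR). Against Hlf-positive cells, Tnfr1KO-labelled and Tnfr2KO against Dnmt3a gave 0 and 1 (0.00776%) such genes in edgeR, and the receptor groups gave 1 (0.00776%), with 491, 622 and 531 at an unadjusted p under 0.05. Against other kept cells the counts were 0, 10 and 0 of 14601, with 659, 1243 and 589 at an unadjusted p under 0.05, and DESeq2 was not run for these tests.

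Tnfr1KO-labelled against Dnmt3a asks what followed when the mutant cells also carried the Tnfr1KO genotype. There were 33 called genes, or 0.328% of those tested, with 26 higher (0.259%) and 7 lower (0.0696%). Ckm, which encodes muscle creatine kinase, was at 129, 154 and 178 CPM in Tnfr1KO-labelled mice and at 6.62, 17.04 and 13.1 CPM in Dnmt3a mice (log2 fold change 3.46, SE 0.35, adjusted p = 6.6e-05). Mnd1, a gene of meiotic recombination, was at 70.7, 65.5 and 53.8 CPM against 28.1, 27.9 and 18.7 CPM (1.27, SE 0.23, adjusted p = 0.022). Ms4a6c was at 138, 86.6 and 111 CPM against 70.4, 56.4 and 43.1 CPM (0.95, SE 0.20, adjusted p = 0.045). None of these groups overlapped, which was a condition for genes named by fold change. Mnd1 and Ms4a6c were each called in 1 of 6 fits with a mouse left out. Mnd1 had 0.67 with every excluded gene at 0 (adjusted p = 0.70, edgeR), where Dnmt3a replicate 4 had too few members to enter the fit. Ms4a6c had 0.34 with the rule applied to thinned cells (adjusted p = 0.30, edgeR). Ckm was also higher in the other kept cells of the same mice (3.64, adjusted p = 0.0015), so its rise was not restricted to members.

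The falls included a gene of retinoid handling and a signalling ligand. Aldh1a1, a retinaldehyde dehydrogenase, was at 0.936, 2.22 and 2.30 CPM in Tnfr1KO-labelled mice and at 19.9, 9.21 and 5.62 CPM in Dnmt3a mice (log2 fold change -2.72, SE 0.55, adjusted p = 0.028). The groups did not overlap, and MxCre mice had Aldh1a1 at 18.9 to 35.8 CPM. It was called in 0 of 6 fits with a mouse left out, and had -1.09 with the rule applied to thinned cells. Lrmda was at 1.40, 1.11 and 0.768 CPM against 26.5, 10.8 and 1.87 CPM (-3.55, SE 0.61, adjusted p = 0.022), where Dnmt3a replicate 4 was close to the lower group. Gdf3, a ligand of the TGF-beta family, was at 32.8, 10.6 and 11.5 CPM against 60.4, 106 and 133 CPM (-2.34, SE 0.48, adjusted p = 0.037). Lrmda had a similar value in other kept cells (-2.90, adjusted p = 3.4e-06).

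Lists around the receptor carried no call in this comparison. Of 12 tumour necrosis factor receptor and ligand genes, 28 proximal signalling genes and 27 NF-kB genes, edgeR called 0, DESeq2 called 0, and 3, 2 and 4 had an unadjusted p under 0.05. Their medians were 0.00, -0.07 and 0.34, beside an all-gene median of -0.01. The NF-kB inhibitor gene Nfkbia had a log2 fold change of 1.13 (SE 0.46, adjusted p = 0.41). The S phase list had 30 of 34 genes negative (median -0.16), with 0 called by edgeR or DESeq2 and 6 at an unadjusted p under 0.05, and the stem cell list split 7 to 6 (median 0.02). Beside them, the erythroid list had 9 of 9 negative (median -0.37) and the dendritic cell list 7 of 7 positive (0.47). Without Dnmt3a replicate 4 the erythroid list had 6 of 9 negative (-0.15) and the dendritic cell list 7 of 7 positive (0.69). Mature neutrophil genes were negative in 7 of 8 (-2.72), but without Dnmt3a replicate 4 they were positive in 8 of 8 (2.82). EdgeR and DESeq2 called 0 in these 3 lists, 0, 0 and 3 genes had an unadjusted p under 0.05, and their part in the S phase difference was not tested. Calls fell from 33 to 1 without Dnmt3a replicate 3, Tnfr1KO-labelled replicate 2 or replicate 3, to 2 without Dnmt3a replicate 4, and to 16 without Tnfr1KO-labelled replicate 1, and rose to 67 without Dnmt3a replicate 2. Ckm was the named gene called in each of these fits, and DESeq2 called 105 genes, 21 of them among the 33.

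Tnfr2KO against Dnmt3a gave 30 called genes, or 0.298% of those tested, with 21 higher (0.209%) and 9 lower (0.0895%). The 3 comparisons with Dnmt3a share its mice, so their values stand side by side and are not independent. Ckm was at 160, 136, 56.7 and 82.1 CPM in Tnfr2KO mice (log2 fold change 2.97, SE 0.34, adjusted p = 0.00021), above all Dnmt3a mice. Gdf3 was at 6.35, 4.47, 19.6 and 23.3 CPM (-2.80, SE 0.42, adjusted p = 0.0028), below all of them. Gdf3 fell more in members than in other kept cells of the same mice (difference -1.20, SE 0.17, adjusted p = 0.0008), and this held whichever mouse was left out, with a highest adjusted p of 0.0032. That test found 10 of 14601 genes, or 0.0685%. Against Hlf-positive cells the same test called 1 of 12891 genes, and that gene was not Gdf3.

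Clspn, Knl1 and Suz12 also fell in Tnfr2KO members, but they were called in only 2, 2 and 1 of the 7 fits with a mouse left out. Clspn was at 56.5, 57.8, 72.6 and 59.0 CPM (log2 fold change -0.66, SE 0.13, adjusted p = 0.034 against Dnmt3a), near its MxCre range of 46.1 to 70.0 CPM. It lies 18.7 Mb from Tnfrsf1b and is among the calls near that gene described below. Knl1, a kinetochore scaffold gene, was at 54.5, 50.4, 56.3 and 55.7 CPM against 72.0, 84.0 and 118 CPM in Dnmt3a mice (-0.69, SE 0.14, adjusted p = 0.034). Suz12, a subunit of Polycomb repressive complex 2, was at 87.5, 87.6, 92.2 and 88.0 CPM against 122, 126 and 123.5 CPM (-0.48, SE 0.10, adjusted p = 0.047). The Tnfr2KO mice lay below all Dnmt3a mice for these 3 genes. With every excluded gene at 0, Clspn, Knl1 and Suz12 had -0.42, -0.43 and -0.29, and none was called (adjusted p = 0.94 for each, edgeR). Dnmt3a replicate 4 had too few members to enter that fit. The S phase list had 31 of 34 genes negative (median -0.20), with Clspn alone called, beside an all-gene median of 0.00. In the same comparison, the list of RNA quality and ambient transcripts had 9 of 9 genes positive (median 0.46), with 0 called by edgeR or DESeq2 and 1 at an unadjusted p under 0.05. Its summed level ran from 4946 to 14912 CPM in Tnfr2KO mice and from 4438 to 11715 CPM in Dnmt3a mice, and its part in these differences was not tested. Mature neutrophil genes were negative in 8 of 8 (median -1.74), but without Dnmt3a replicate 4 they were positive in 8 of 8 (4.50). EdgeR and DESeq2 called 0 of them, 0 had an unadjusted p under 0.05, and their part was not tested either.

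Many of the Tnfr2KO calls lay near the targeted gene. Tnfrsf1b is at chr4:145212368-145246870 (GRCm38.p6, RefSeq positions), and a window of 20 Mb on each side of its start was chosen after the calls had been seen. Within it, 9 of 256 tested genes with a position were called against Dnmt3a, or 3.52%, while 18 of 9559 elsewhere were called, or 0.188%. Against Tnfr1KO-labelled mice the counts were 8 of 256, or 3.13%, and 2 of 9559, or 0.0209%. Tnfr1KO-labelled against Dnmt3a had 0 of 256 called in this window by edgeR (25 at an unadjusted p under 0.05) and 30 of 9559 elsewhere. Dnmt3a against MxCre, where both groups lack the Tnfr2KO label, had 2 of 256, or 0.781%, and 22 of 9559, or 0.230%. DESeq2 called 2 genes of the window in Tnfr2KO against Dnmt3a, 8 against Tnfr1KO-labelled mice, and 2 in each of the other comparisons. At an unadjusted p under 0.05 DESeq2 had 33 and 23 window genes in these 2 Tnfr2KO comparisons. It had 16 in Tnfr1KO-labelled against Dnmt3a and 19 in Dnmt3a against MxCre. DESeq2 gave an adjusted p to 5 of the 18 named called genes of Tnfr2KO against Dnmt3a and called those 5. Genes without one count as not called. The shares of the window describe positions and were not tested.

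The genes of the window moved in both directions. Zfp990, a zinc finger gene at chr4:145510759-145538251, was at 15.7, 16.4, 44.6 and 31.4 CPM in Tnfr2KO mice and had 1 UMI over the Dnmt3a mice and none over the Tnfr1KO-labelled mice. The ratio to Dnmt3a was 151-fold with a counting interval of 27.01-fold to 5994-fold, and Zfp990 was at least 48.2-fold higher than in Tnfr1KO-labelled mice by the floor of 3 UMIs over that group. Zfp992, at chr4:146449030-146469440, was at 20.0, 20.6, 20.4 and 17.9 CPM against 8.28, 7.14 and 9.36 CPM in Dnmt3a mice (log2 fold change 1.34, SE 0.23, adjusted p = 0.0089). Zinc finger genes of this cluster resemble each other and can share reads, so their single values are uncertain. Dhrs3, a retinal reductase gene at chr4:144892534-144928209, was at 69.2, 61.4, 49.2 and 58.8 CPM against 26.5, 18.4 and 13.1 CPM (1.58, SE 0.22, adjusted p = 0.00096). A430005L14Rik, 8.74 Mb away, was at 112, 105.5, 111 and 122 CPM against 51.3, 55.3 and 50.5 CPM (1.09, SE 0.13, adjusted p = 0.00026). For all 4 genes each Tnfr2KO value lay above those of the other mice tested.

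Genes that fell lay further along the same chromosome. Pusl1, a pseudouridine synthase-like gene 10.7 Mb away, was at 5.01, 9.24, 4.17 and 4.86 CPM in Tnfr2KO mice and at 19.0, 23.5 and 35.6 CPM in Dnmt3a mice (log2 fold change -2.05, SE 0.28, adjusted p = 0.00096). Noc2l, a regulator of histone acetylation 11.02 Mb away, was at 74.9, 74.5, 70.1 and 62.1 CPM against 125, 124 and 93.6 CPM (-0.74, SE 0.12, adjusted p = 0.005). Cd52, a glycoprotein gene of lymphocytes 11.1 Mb away on the other side, was at 105, 125, 128 and 114.5 CPM against 194, 234 and 262 CPM (-0.95, SE 0.16, adjusted p = 0.0076). With every excluded gene at 0, where Dnmt3a replicate 4 had too few members to enter the fit, Cd52 had -0.51 (adjusted p = 0.81, edgeR). It was called in 6 of 7 fits with a mouse left out. Cd52 was the only call in the lymphoid priming list (11 genes tested, median -0.19), with 7 of the 11 genes negative. In other kept cells of the same mice, Zfp990 (7.73, adjusted p = 3.8e-05), Pusl1 (-2.06, adjusted p = 0.0002) and A430005L14Rik (1.13, adjusted p = 0.0013) had similar values, and Cd52 had -1.01 (adjusted p = 0.17).

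**Figure D4:**
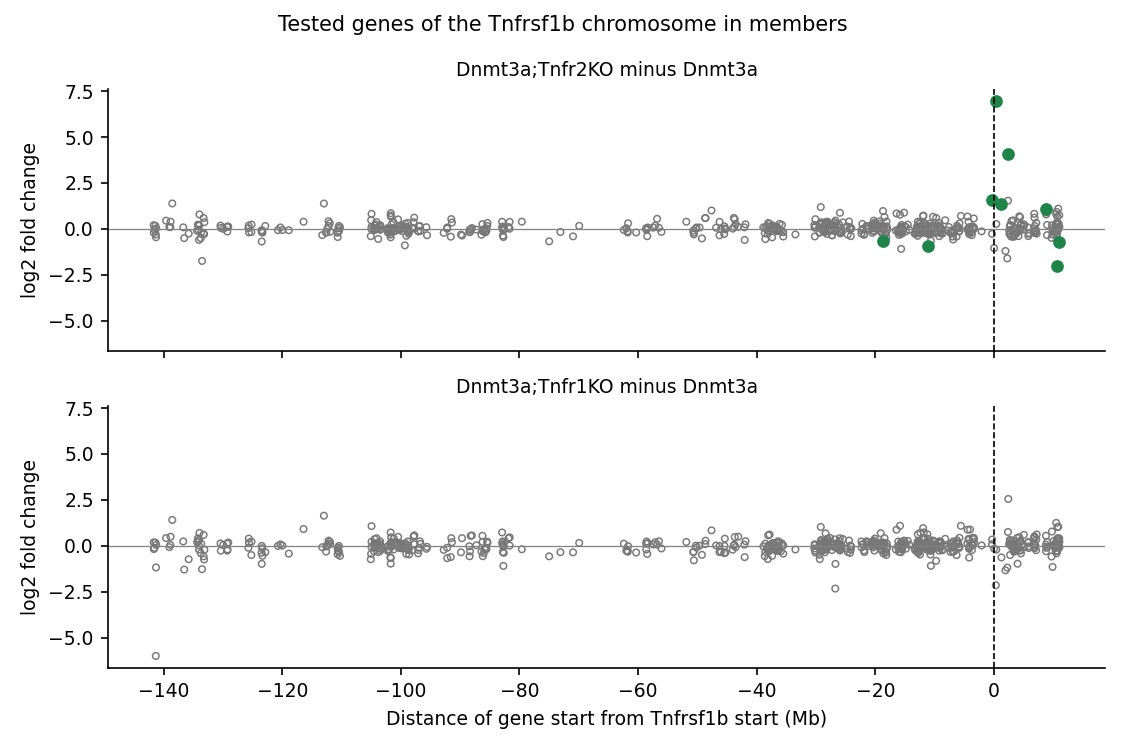
Log2 fold changes in members for tested genes of chromosome 4 against the distance of their start from that of Tnfrsf1b (Mb), with called genes marked. Called genes of Tnfr2KO against Dnmt3a stood between 18.7 Mb before and 11.02 Mb after Tnfrsf1b, and Tnfr1KO-labelled against Dnmt3a had none.

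Counts against Dnmt3a again moved with single mice. There were 77, 4 and 16 calls without Dnmt3a replicates 2, 3 and 4, and 14, 15, 24 and 112 without Tnfr2KO replicates 1 to 4. The calls within 20 Mb of Tnfrsf1b numbered 8 to 11 in these fits except without Dnmt3a replicate 3, where 1 was left. DESeq2 called 87 genes, 14 of them among the 30, and 2 in the window. Ckm, A430005L14Rik and the gene model Gm47283 were called in each fit with a mouse left out.

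Tnfr2KO against Tnfr1KO-labelled, the direct comparison of the receptors, gave 11 called genes, or 0.109% of those tested, with 7 higher (0.0696%) and 4 lower (0.0398%). Apart from genes near Tnfrsf1b, the called genes included Lrmda and the gene model CAAA01118383.1. Lrmda was at 15.4, 11.3, 14.2 and 9.72 CPM in Tnfr2KO mice and at 1.40, 1.11 and 0.768 CPM in Tnfr1KO-labelled mice (log2 fold change 3.38, SE 0.57, adjusted p = 0.0095). The groups did not overlap, and MxCre mice had Lrmda at 17.3 to 21.8 CPM. With the rule applied to thinned cells Lrmda had 2.24 and was still called, but it was called in only 4 of 7 fits with a mouse left out. Lrrc47, 8.80 Mb from Tnfrsf1b, was at 57.1, 57.2, 37.9 and 47.4 CPM against 17.3, 30.5 and 28.4 CPM (1.00, SE 0.19, adjusted p = 0.035). It was called in 2 of 7 such fits.

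Stem cell genes leaned higher in Tnfr2KO members without calls by edgeR. The stem cell list had 11 of 13 tested genes positive (median 0.47), with 0 called by edgeR, 1 by DESeq2 and 5 at an unadjusted p under 0.05. HoxA and HoxB genes were positive in 10 of 10 (median 0.40), with 0 called by either tool and 3 at an unadjusted p under 0.05. Other lists differed beside them, since the erythroid list had 7 of 9 genes positive (median 0.70), the megakaryocyte list 8 of 10 (0.38) and the RNA quality and ambient list 7 of 9 (0.24). The dendritic cell list had 7 of 7 negative (-0.77) and the monocyte list 9 of 13 (-0.45). EdgeR called 0 genes in each of these 5 lists, DESeq2 called 1 megakaryocyte gene, and 2, 2, 2, 1 and 4 had an unadjusted p under 0.05. Their part in the stem cell and Hox differences was not tested. Tnfr2KO replicate 3 stood out for stem cell genes, with Ifitm1 at 1848 CPM and Ly6a at 78.0 CPM, against 297 to 422 CPM and 5.36 to 14.9 CPM in the other Tnfr2KO mice. Apoe, which encodes an apolipoprotein, was at 355, 273, 494 and 410 CPM against 106, 122 and 164 CPM (log2 fold change 1.56, SE 0.32), which did not overlap but had an adjusted p of 0.072. Calls numbered 11, 4 and 8 without Tnfr1KO-labelled replicates 1, 2 and 3, and 13, 17, 13 and 10 without Tnfr2KO replicates 1 to 4.

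Genes of short ribosomal proteins recurred among the calls of 3 comparisons. Rps29 was at 9298, 7698 and 7397 CPM (no scaling factor applied) in members of MxCre mice, at 3350, 3824, 2691 and 2885 CPM in Dnmt3a mice, at 8195, 9338 and 9477 CPM in Tnfr1KO-labelled mice and at 10241, 8580, 5800 and 3350 CPM in Tnfr2KO mice. The Dnmt3a mice were low without overlap with MxCre or Tnfr1KO-labelled mice, and Tnfr2KO replicate 4 shared their level. The same libraries gave nearly the same values in all other kept cells, for example 9199, 2681 and 3276 CPM for MxCre replicate 1, Dnmt3a replicate 3 and Tnfr2KO replicate 4. Rps29 thus differed between libraries in both cell sets alike. Rps29 had a log2 fold change of -1.48 (SE 0.27, adjusted p = 0.032) against MxCre in Dnmt3a members and of 1.67 (SE 0.27, adjusted p = 0.022) for Tnfr1KO-labelled against Dnmt3a.

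Of 80 ribosomal protein genes tested, a family chosen after the calls had been seen, 4 were called lower in Dnmt3a against MxCre (72 of 80 negative, median -0.17). In Tnfr1KO-labelled against Dnmt3a 10 were called higher (75 positive, median 0.24), and in Tnfr2KO against Dnmt3a 8 (76 positive, median 0.25). Over all genes tested, edgeR called 0.249%, 0.328% and 0.298% in these 3 comparisons. DESeq2 called 12, 28 and 24 of the 80. In Tnfr2KO against Tnfr1KO-labelled, edgeR and DESeq2 called 0, 0 had an unadjusted p under 0.05 and the median was -0.02. Ribosomal calls ranged from 0 to 16, 0 to 21 and 0 to 24 in the first 3 comparisons with 1 mouse left out. They were 0 in each of the 3 without Dnmt3a replicate 3 or replicate 4, and highest without Dnmt3a replicate 2. Any single MxCre mouse, Tnfr1KO-labelled replicate 2 or 3, or Tnfr2KO replicate 1 or 2 left out also gave 0 in its comparison. The medians without Dnmt3a replicate 4 were -0.09, 0.13 and 0.14. Rps29 itself ran from -1.68 to -1.34 against MxCre in these fits and was called in 1 of 6. Ribosomal genes have near-identical pseudogenes that can take their reads. The cause was not tested.

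**Figure D5:**
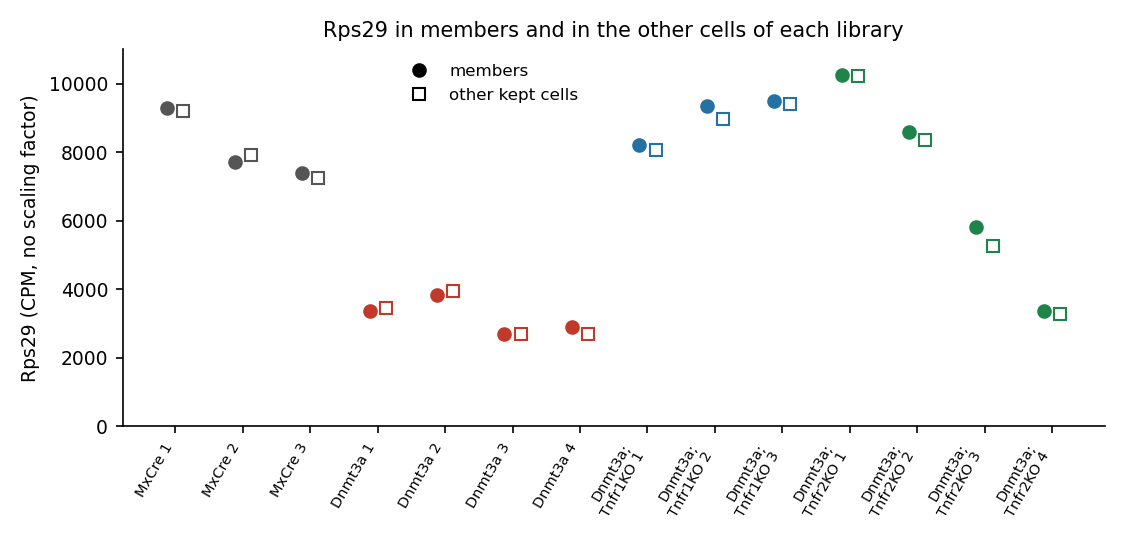
Rps29 (CPM, no scaling factor) in members and in all other kept cells, by library and group. The 4 Dnmt3a libraries lay at 2691 to 3824 CPM in members, and in each library both cell sets had nearly the same level.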

How the data were processed

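The deposited files hold whole-number UMI counts per gene and cell, 1 filtered matrix per library, made by the authors, and per the file headers the program was Cell Ranger 6.0.0. The submitters' processing notes also name bcl2fastq 2.20.0.422 and the mm10 (GRCm38) build, and the annotation release is not given in the sources used here. The quality limits were a minimum of 1000 UMIs and of 500 genes and a mitochondrial share below 10%. Doublets, called by a neighbour-based score with an assumed rate of 0.8% per 1000 barcodes, numbered 21 among members and 3740 of all kept cells. They stayed in, and their removal was an alternative. No value column was left unused (0).

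Counts were summed over the members of each library with at least 20 members. Sums were tested with edgeR 4.0.16 (R 4.3.3) after TMM scaling and the filterByExpr filter, in 1 model with 4 groups, with Benjamini-Hochberg adjustment over 10055 genes and calls under 0.05. Differences of effects between cell sets were tested in the same tool with the library as a block. Shares were compared by exact permutation in scipy 1.17.1. Tested on simulated data, the Dnmt3a against MxCre fit recovered 16.5% of genes changed 1.5-fold, 71.5% of those changed 2-fold and 98.5% of those changed 4-fold, with 1, 7 and 14 false calls.

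Named genes were up to 10 higher and 10 lower called genes per comparison by fold change, with a group mean of 10 CPM or more and no overlap of the groups, up to 4 called genes per list, Dnmt3a, Tnfrsf1a, Tnfrsf1b, Tnf and the 5 markers. Other genes named, the Hlf-carrying neighbours, the ribosomal family, the window around Tnfrsf1b and 3 alternatives were chosen after values were seen. Members and lists were chosen with earlier results of these data known. Positions are those of RefSeq on GRCm38.p6. Alternatives covered DESeq2 1.42.0, scaling, filters, the rule's limits, thinning, the replicate block and leaving out each library. In the order of the comparisons, DESeq2 gave an adjusted p to 13 of 19, 7 of 17, 5 of 18 and 11 of 11 named called genes. Genes without one count as not called by DESeq2. The labels call the replicates biological. Some results are not reported here.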

Additional observations from a re-analysis of the deposited data

Results flagged for a closer look

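In 9 of 66 groups of 4 libraries tested, 1 Tnfr2KO library was flagged as apart from the other 3. A flag can mark a small difference where the other 3 lie close together. The groups reuse the same libraries and include genes named because they were called, so no chance rate is given. In single genes these included replicate 3 for Clspn (72.6 CPM) and Suz12 (92.2 CPM) and replicate 2 for Pusl1 (9.24 CPM). In summed lists they were replicate 3 for stem cell genes (2379 CPM), replicate 4 for mature neutrophil genes (1295 CPM) and erythroid genes (629 CPM), and replicate 2 for dendritic cell genes (709 CPM) and G2 and M phase genes (4368 CPM).

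The effect of Dnmt3a against MxCre differed between members and Hlf-positive cells, by edgeR's test of the difference, in 12 genes with at least 10 CPM in both groups of members. The differences (members minus the other cells, log2) included -0.55 for Ramp1, -1.001 for Ube2c, -0.72 for Cdc20, -0.62 for Cenpa, -0.81 for BC035044, -0.42 for Gpx1, -0.73 for Hmmr, -0.52 for Cks2, -0.65 for Emb, -1.10 for Ms4a6c and -0.77 for Ms4a3. Against all other kept cells they included -1.01 for Ube2c, -0.78 for Cdc20, -0.58 for Arl6ip1, -0.78 for Hmmr, -0.80 for Tnfrsf13b and -0.99 for Ms4a6c.

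The effect of Tnfr2KO against Dnmt3a differed between members and other kept cells in 7 such genes. The differences were -0.55 for Srm, 1.79 for Myl10, -1.20 for Gdf3, 0.98 for Zfp36, 3.04 for Hbb-bt, 3.63 for Hba-a1 and 0.46 for Malat1. Of all 40 differing genes, 26 had at least 10 CPM in both groups, a limit chosen after the values were seen.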

How the results depend on the processing

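Thinning reversed 2 differences of shares: Dnmt3a against MxCre became 1.07 points at 5000 UMIs and 1.21 at 3000, and Tnfr1KO-labelled against Dnmt3a became -1.45 and -1.13. Without each library in turn, the 4 differences ranged from -1.93 to -0.67, -0.061 to 1.10, 1.53 to 2.84 and 1.12 to 2.08 points. Calls numbered 25 for Dnmt3a against MxCre, 33 and 30 for Tnfr1KO-labelled and Tnfr2KO against Dnmt3a, and 11 between the receptor groups, and values below keep this order. They were 361, 262, 273 and 155 without a filter on low counts and, for the first 3, 102, 105 and 87 in DESeq2, 154, 93 and 13 with only the groups compared, and 208, 92 and 108 with the rule applied to thinned cells. They were 3, 4 and 14 with at least 2 Cd34 UMIs, 0, 1 and 4 with every excluded gene at 0, 3, 2 and 15 under 5% mitochondrial UMIs, and 3, 2 and 16 without libraries under 30 members. The first 3 of these settings also cost libraries. Dnmt3a replicate 4 had 16, 7 and 17 members in them, fewer than required to enter a fit. With every excluded gene at 0, MxCre replicate 2 also fell short, at 14 members. The part of the lost mice in these counts was not tested. With equal numbers of members Dnmt3a against MxCre gave 10, Tnfr2KO against Dnmt3a 14 and the receptor groups 0, and with Dnmt3a replicate 1 kept Dnmt3a against MxCre gave 55 and Tnfr2KO against Dnmt3a 48. Without each library they ranged from 2 to 110, 1 to 67, 4 to 112 and 4 to 17. Differences of effects ranged from 2 to 53, 0 to 2, 0 to 3 and 0 to 3 calls against Hlf-positive cells, and from 2 to 50, 0 to 16, 1 to 53 and 1 to 9 against other kept cells. With RLE scaling, Tnfr2KO against Dnmt3a gave 2 against Hlf-positive cells. The 19, 17, 18 and 11 named genes that were called had 1 direction in each alternative that tested them. Of these, 4, 4, 5 and 1 shrank by more than 1.5 times on the log2 scale in at least 1 alternative. In fits that only left out 1 library, none of these genes did so. Uncalled ones such as Dnmt3a, Tnf, Cd27 and Adgrg1 took either sign in Dnmt3a against MxCre. The causes of these shifts were not tested. With 21 members, Dnmt3a replicate 4 limits what depth can show.

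With the replicate number as a block the calls were 63, 36, 49 and 9. Same-numbered libraries correlated at -0.22 to 0.25 and differently numbered ones at -0.25 to 0.23. These values show no pairing by number, but so few libraries per group cannot exclude one.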
